A study of Mus musculus with 8 samples.

Results

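Collagen and laminin genes were examined on 8 expression arrays of mouse tissue labelled trigeminal ganglion, which holds the sensory neurons of the face. They were chosen by gene symbol alone, as every probe set whose platform annotation names a single gene and whose symbol is that of a collagen α chain or of a laminin α, β or γ chain. This gave 101 probe sets for 52 genes, 42 collagens and 10 laminins, out of 45101 probe sets and 18193 genes with a probe set of their own. Sets of short oligonucleotide probes, each set aimed at 1 transcript, made up the arrays. By their titles 4 arrays are controls, Ctrl 1 to 4, and 4 are called Exp 1 to 4. The sources used here do not say what Exp stands for, nor give genotype, strain, age or treatment. Trigeminal ganglion stands in one label field, whereas another reads brain and adrenal medulla. Nothing in the labels says that the arrays of a group came from separate animals, so p-values cover just the spread among these 8 arrays, and that may be technical.

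Collagen chains share a repeat in which glycine returns at fixed intervals, and chains of matching types wind into a helix before secretion. Fibrillar types build the ropes of connective tissue, type IV forms the mesh of basement membranes, and other types decorate fibrils or cross membranes. Laminins are cross-shaped trimers of an α, a β and a γ chain that lie beside type IV collagen in every basement membrane. In a peripheral ganglion both are laid down around Schwann cells, satellite glia and vessels and in the surrounding sheath, and neurons extend axons along laminin.

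The deposited values are linear signals, taken here as log2(signal + 16) after quantile normalization, so that a level is in log2 units and a difference of 1 is a doubling of signal + 16. Median signals lay between 478 and 553 over the 8 arrays. Detection calls were not used here, and probe sets with a mean under the 40th percentile, a level of 8.45, were not tested. Of the sensory neuron markers on the array 6 of 6 passed this filter, of the chromaffin markers 5 of 6, Dbh being the exception, and of the central neuron markers 2 of 5. Xist, the RNA of the inactive X chromosome, was above 15 on Ctrl 3, Exp 1 and Exp 4 and under 11 on the others, and the Y-linked Uty, Eif2s3y and Kdm5d were low on those 3, so both groups held both sexes. Markers of skeletal muscle stood apart on Exp 3, where the mean of 10 genes was 1.94 above the mean of all arrays.

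The collagen and laminin genes as a whole were close between the groups, and no member passed limma's test. Among the members 43 of 52 genes were tested by their brightest probe set, and 69 of 101 probe sets in all. At a 5% false discovery rate 0 of the 69 were called, with a smallest adjusted p of 0.999, beside 1 call or 0.0037% among all 27022 tested probe sets. At an unadjusted limma p under 0.05 there were 4 genes. In 1 the signal was higher in Exp, where 1.47% of all 12763 tested genes were, and in 3 it was lower, where 2.26% of all genes were. Groups that did not overlap were found in 1 tested gene, lower in Exp, where the background was 1.24%, and in 0 genes higher in Exp, where it was 1.01%. The median difference, Exp minus Ctrl, was 0.03 over 34 collagen genes and -0.07 over 9 laminin genes, beside -0.01 over all genes tested. For 39 of the 43 genes the 95% confidence interval lay within a doubling in either direction. Of 22 members with more than 1 tested probe set, the probe sets had the same sign in 13, and in 1, Col4a5, more than 1 probe set had an unadjusted p under 0.05.

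**Figure D1:**
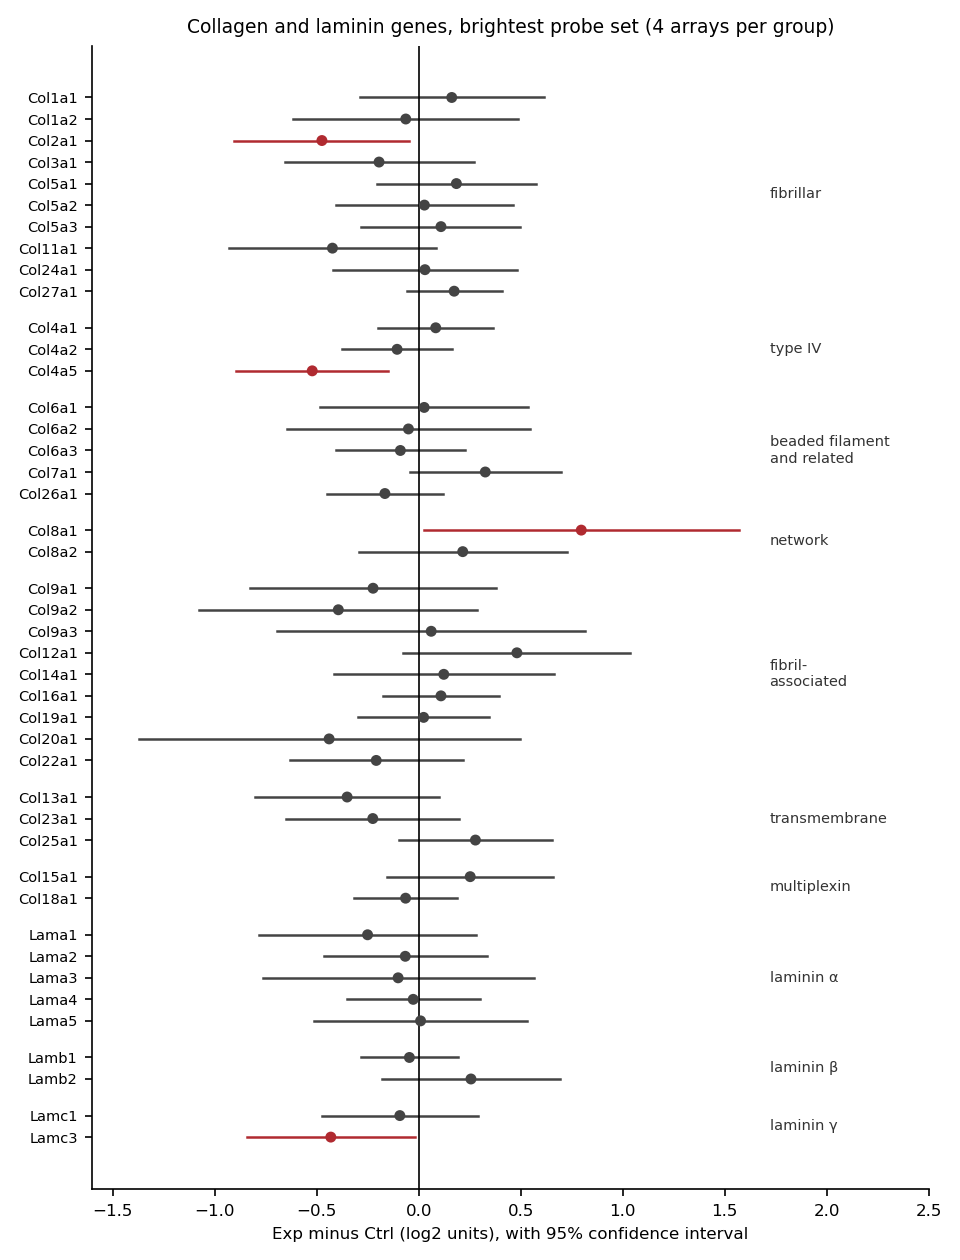
Exp minus Ctrl of the 43 tested collagen and laminin genes, with the gene on the vertical axis and log2 units on the horizontal axis. Points are limma estimates from 4 arrays per group, lines are 95% confidence intervals, and red marks the 4 genes with an unadjusted p under 0.05, Col2a1, Col4a5, Col8a1 and Lamc3.

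Of the type IV collagens, Col4a5 was lower in Exp and had the smallest p of the tested members. It encodes the α5 chain of type IV collagen, an X-linked chain of specialised basement membranes that is mutated in Alport syndrome. Its brightest probe set read 12.70, 12.19, 12.17 and 12.67 on Ctrl 1 to 4 and 11.72, 11.94, 11.82 and 12.16 on Exp 1 to 4. All 4 Exp values lay under all 4 Ctrl values, though Exp 4 and Ctrl 3 lay close. The difference was -0.52 (SE 0.16, 95% confidence interval -0.89 to -0.15), a ratio of 0.697 on the signal + 16 scale (limma, unadjusted p = 0.0115, adjusted p = 0.999). The second probe set of the gene read 9.62, 9.52, 9.54 and 9.70 on Ctrl 1 to 4 and 9.19, 9.27, 9.51 and 8.99 on Exp 1 to 4, again with all Exp values under all Ctrl values, Exp 3 and Ctrl 2 being the closest. It differed by -0.35 (SE 0.12, 95% confidence interval -0.63 to -0.08), with an unadjusted limma p of 0.0184. On the values without quantile normalization the groups of the brighter probe set still did not overlap, while those of the dimmer one did, since its highest Exp value of 9.45 passed the lowest Ctrl value of 9.42. Over 19 other settings the difference of Col4a5 ran from -0.61 to -0.43 and the unadjusted p from 0.00227 to 0.0349, while the adjusted p stayed between 0.664 and 1.00. With arrays split by Xist, Exp minus Ctrl was -0.23 among those with high signal (1 Ctrl and 2 Exp) and -0.64 among those with low signal (3 Ctrl and 2 Exp).

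Schwann cell markers also had a lower mean in Exp. It lay 0.24 above the mean of all arrays in Ctrl and at -0.24 in Exp, with 7 of 8 tested markers lower, 2 of them, Sox10 and Egr2, at an unadjusted limma p under 0.05. Most of that gap came from Egr2, a transcription factor of myelination, which differed by -2.66 (SE 0.97) and read 9.15 on Ctrl 2 against 12.37 to 13.23 on the other Ctrl arrays. Without Egr2, left out after its values were seen, the mean of the other 7 was 0.08 in Ctrl and -0.08 in Exp. The summed signal of the 8 ran from 162714 to 183972 in Ctrl and from 153253 to 169587 in Exp, and no marker was at 0. Their part in the difference of Col4a5 was not tested. In bulk tissue, fewer cells of a type and less RNA per cell cannot be told apart.

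Col4a6, the α6 chain, lies head to head with Col4a5 on the X chromosome, and the genes are read away from each other. Its brightest probe set was under the filter and was not tested, and read 8.77, 8.11, 8.27 and 7.72 on Ctrl 1 to 4 and 6.06, 6.04, 7.50 and 7.69 on Exp 1 to 4. Here too the Exp values lay below the Ctrl values (the closest being Exp 4 and Ctrl 4), but on the unnormalised values the groups overlapped. Means were 8.22 ± 0.44 in Ctrl and 6.82 ± 0.89 in Exp (SD, n = 4 each). In the fit without a filter the difference was -1.40 (SE 0.44, 95% confidence interval -2.42 to -0.37), with an unadjusted limma p of 0.0137 and an adjusted p of 0.997. The other Col4a6 probe set, also under the filter, differed by -0.15 (SE 0.84) in that fit and its levels ranged from 5.24 to 8.33, so the probe sets of this gene disagree. Exp minus Ctrl of Col4a6 was -1.40 among arrays with high Xist and -1.43 among those with low Xist.

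The windows around the start sites of this pair, and of the pair Col4a1 and Col4a2 that also lies head to head, are shown because both Col4a5 probe sets were lower in Exp with groups that did not overlap, and to set its start site beside those of its neighbour and of the common type IV pair. Col4a6 itself was not tested. Each window runs from 250 bases before to 50 after the start, 5′ to 3′ on the gene's own strand, from RefSeq in assembly GRCm38.p6, which held windows for 38 of the 52 genes. Capitals mark CCAAT and GGGCGG on either strand.
Col4a5 (chrX:141475169-141475468, plus strand): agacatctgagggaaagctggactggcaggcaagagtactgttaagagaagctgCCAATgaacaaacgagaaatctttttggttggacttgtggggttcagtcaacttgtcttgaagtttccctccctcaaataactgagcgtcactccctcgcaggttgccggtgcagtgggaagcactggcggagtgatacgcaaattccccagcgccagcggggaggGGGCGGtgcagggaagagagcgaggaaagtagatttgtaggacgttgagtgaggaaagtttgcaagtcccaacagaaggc
Col4a6 (chrX:141474027-141474326, minus strand): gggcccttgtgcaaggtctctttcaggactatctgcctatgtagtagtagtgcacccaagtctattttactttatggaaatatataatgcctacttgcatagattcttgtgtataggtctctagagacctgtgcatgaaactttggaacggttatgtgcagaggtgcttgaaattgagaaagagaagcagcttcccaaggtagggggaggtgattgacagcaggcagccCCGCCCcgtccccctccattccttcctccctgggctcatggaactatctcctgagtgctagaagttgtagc
Col4a1 (chr8:11312777-11313076, minus strand): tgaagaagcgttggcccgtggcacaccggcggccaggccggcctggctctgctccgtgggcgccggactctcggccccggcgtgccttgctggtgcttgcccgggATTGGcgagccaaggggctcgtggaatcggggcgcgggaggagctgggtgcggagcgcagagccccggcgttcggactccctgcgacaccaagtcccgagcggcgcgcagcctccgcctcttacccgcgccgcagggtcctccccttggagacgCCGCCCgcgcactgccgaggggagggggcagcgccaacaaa
Col4a2 (chr8:11312555-11312854, plus strand): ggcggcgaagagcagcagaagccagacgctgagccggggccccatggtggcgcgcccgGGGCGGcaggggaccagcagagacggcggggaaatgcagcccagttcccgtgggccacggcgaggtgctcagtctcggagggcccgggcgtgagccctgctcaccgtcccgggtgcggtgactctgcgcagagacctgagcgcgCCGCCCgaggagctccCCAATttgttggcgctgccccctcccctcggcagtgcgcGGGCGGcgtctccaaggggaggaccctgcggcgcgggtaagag

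The start sites of Col4a5 and Col4a6 were 1343 bases apart, so these windows did not overlap. Those of Col4a1 and Col4a2 lay so close that their windows shared 78 bases. The window of Col4a5 held 1 CCAAT and 1 GGGCGG, and that of Col4a6 held 1 GGGCGG and no CCAAT. Those of Col4a1 and Col4a2 each held 1 CCAAT, with 1 GGGCGG in the former and 3 in the latter. The GGGCGG of Col4a1 lies in the shared bases and is the same site as 1 of the 3 of Col4a2. GC content was 52.7% and 48.3% in the X-linked pair, and 74.0% and 73.7% in Col4a1 and Col4a2, beside a median of 52.7% over 32851 windows. CCAAT stood in 37.4% of all windows, GGGCGG in 35.7% and TATAAA, which none of the 4 held, in 13.6%, and of the 42 windows of members 14 held the first, 25 the second and 5 the last. A match is a description of the letters only.

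Col4a1 and Col4a2 encode the chains of the type IV collagen found in nearly all basement membranes. Col4a1 read 15.35, 14.93, 15.12 and 15.23 on Ctrl 1 to 4 and 15.16, 15.36, 15.07 and 15.37 on Exp 1 to 4. The groups overlapped, with a difference of 0.08 (SE 0.12, 95% confidence interval -0.20 to 0.37). Its other probe set differed by -0.10 (SE 0.13). Col4a2 read 12.80, 12.84, 12.79 and 12.88 on Ctrl 1 to 4 and 12.84, 12.82, 12.40 and 12.82 on Exp 1 to 4, and Exp 3 was the one low array. The difference of Col4a2 was -0.11 (SE 0.12, 95% confidence interval -0.38 to 0.17), and 0.0014 without Exp 3. The α3 and α4 chains, Col4a3 and Col4a4, which join α5 in the kidney, had no probe set above the filter, and for Col4a3 the probe sets disagreed, with 0.85 in one and -0.34 in the other.

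**Figure D2:**
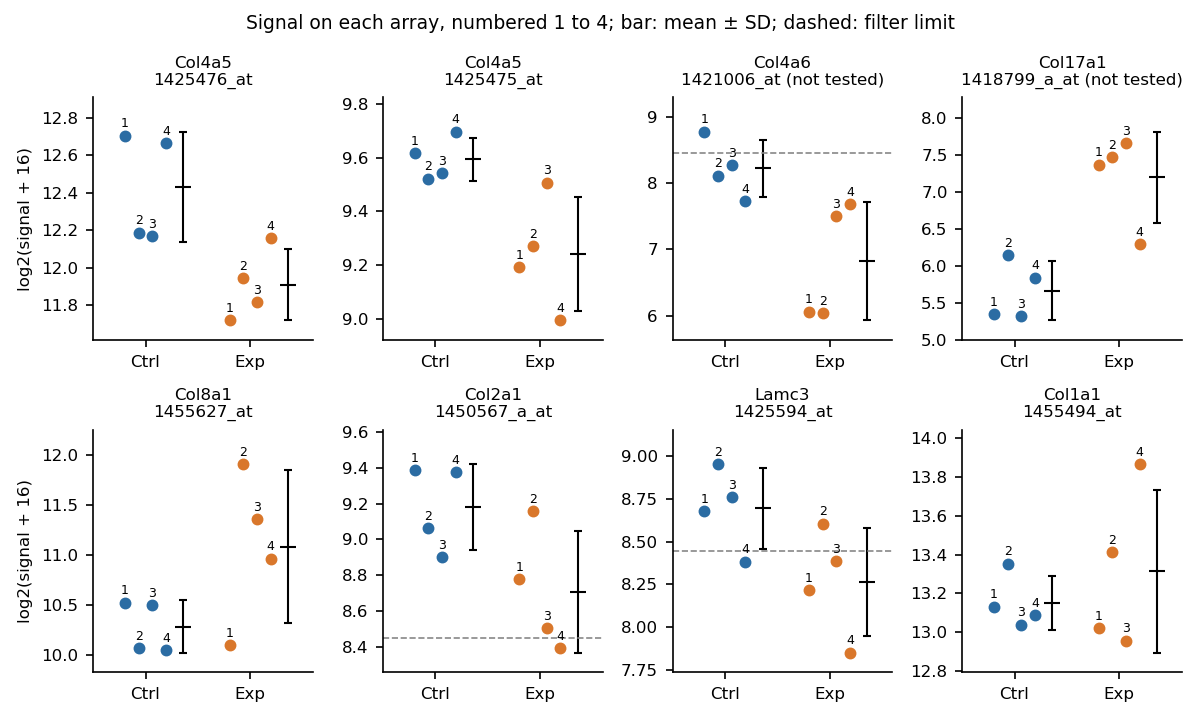
Level of 8 probe sets on each array, in log2(signal + 16), with Ctrl in blue, Exp in orange, array numbers beside the points, mean ± SD as a bar (n = 4) and the filter limit of 8.45 dashed where it falls in range. The Exp points of both Col4a5 probe sets and of Col4a6 lie under all Ctrl points and those of Col17a1 above them, whereas Col8a1, Col2a1, Lamc3 and Col1a1 overlap.

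Laminin chains differed little between the groups, with 2 of 9 tested genes higher in Exp and 7 lower, of which 1 had an unadjusted p under 0.05. That gene was Lamc3, a γ chain of limited distribution. It read 8.68, 8.96, 8.76 and 8.38 on Ctrl 1 to 4 and 8.22, 8.61, 8.39 and 7.85 on Exp 1 to 4. Ctrl 4, at 8.38, fell within the Exp range, so the groups overlapped. The difference was -0.43 (SE 0.18, 95% confidence interval -0.84 to -0.02, limma unadjusted p = 0.0422, adjusted p = 0.999), and of 15 other settings 8 had an unadjusted p under 0.05. Its levels lay around the filter limit, and its second probe set did not pass.

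Lamc1, the γ chain of most laminins, read 11.18, 11.21, 11.06 and 11.39 on Ctrl 1 to 4 and 11.17, 11.42, 11.24 and 10.63 on Exp 1 to 4. Exp 4 was lowest and the other 7 arrays lay between 11.06 and 11.42. It differed by -0.09 (SE 0.17, 95% confidence interval -0.48 to 0.29), and by 0.07 without Exp 4. A second Lamc1 probe set, under the filter, read 8.77, 8.36, 8.68 and 8.86 on Ctrl 1 to 4 and 6.04, 8.80, 7.28 and 5.94 on Exp 1 to 4. There Exp 1, Exp 3 and Exp 4 were more than 1 unit under every Ctrl array while Exp 2 was not, so the probe sets of Lamc1 disagree, and without a filter this one differed by -1.65 (SE 0.60, 95% confidence interval -3.04 to -0.27).

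Among β chains, Lamb1, the partner of Lamc1 in most laminins, read 15.70, 15.63, 15.65 and 15.50 on Ctrl 1 to 4 and 15.50, 15.72, 15.40 and 15.67 on Exp 1 to 4. This was one of the steadiest members, its SD being 0.08 in the Ctrl group and 0.15 in the Exp group, and it differed by -0.05 (SE 0.11, 95% confidence interval -0.28 to 0.19). The next brightest Lamb1 probe set, also tested, differed by 0.01 (SE 0.15). A dimmer tested one differed by 0.79 (SE 0.51), with Ctrl values from 8.12 to 10.65. One under the filter differed by -0.36 (SE 0.33) in the fit without one. The probe sets of Lamb1 thus disagree, and the gap lay between the dimmer ones. Lamb2, the β chain of synaptic basement membranes, read 10.09, 9.62, 9.32 and 9.67 on Ctrl 1 to 4 and 9.67, 10.28, 9.73 and 10.03 on Exp 1 to 4. The groups overlapped, and the difference was 0.26 (SE 0.19, 95% confidence interval -0.18 to 0.69). Lamb3, a chain of the epidermal laminin, lay under the filter with means of 5.91 ± 0.73 in Ctrl and 5.99 ± 0.81 in Exp (SD, n = 4 each).

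The α chains set where a laminin is used. Lama2, the α chain of muscle and Schwann cell basement membranes, read 12.34, 12.31, 12.08 and 12.53 on Ctrl 1 to 4 and 11.97, 12.74, 12.14 and 12.16 on Exp 1 to 4 and differed by -0.07 (SE 0.18, 95% confidence interval -0.46 to 0.33). Lama4, that of vessels and peripheral nerve, read 13.79, 13.59, 13.56 and 13.36 on Ctrl 1 to 4 and 13.29, 13.74, 13.41 and 13.75 on Exp 1 to 4 and differed by -0.03 (SE 0.14, 95% confidence interval -0.35 to 0.30). In both genes Exp 1 was the lowest array and the groups overlapped. Lama5, of mature epithelia and vessels, read 9.16, 8.97, 8.52 and 8.85 on Ctrl 1 to 4 and 8.96, 9.49, 8.60 and 8.49 on Exp 1 to 4 and differed by 0.01 (SE 0.23, 95% confidence interval -0.51 to 0.53). Lama1, of the earliest basement membranes in the embryo, read 9.60, 8.63, 9.37 and 9.74 on Ctrl 1 to 4 and 8.97, 8.87, 9.17 and 9.32 on Exp 1 to 4. It had the smallest p of the α chains, with Ctrl 2 lowest, and differed by -0.25 (SE 0.23, 95% confidence interval -0.78 to 0.28, limma unadjusted p = 0.313). Lama3 of the epidermal laminin differed by -0.10 (SE 0.29).

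The fibrillar collagens had 6 of 10 tested genes higher and 4 lower. Col1a1, the main chain of type I collagen, read 13.13, 13.35, 13.04 and 13.09 on Ctrl 1 to 4 and 13.02, 13.41, 12.96 and 13.87 on Exp 1 to 4. Exp 4 stood highest, and the groups overlapped, with a difference of 0.16 (SE 0.20, 95% confidence interval -0.29 to 0.61) and of -0.02 without Exp 4. Col1a2, the other type I chain, read 15.41, 14.65, 14.66 and 15.12 on Ctrl 1 to 4 and 14.77, 15.38, 14.40 and 15.04 on Exp 1 to 4 and differed by -0.06 (SE 0.24, 95% confidence interval -0.61 to 0.49). Its 2 other tested probe sets differed by -0.16 (SE 0.21) and 0.09 (SE 0.31). Col3a1, the type III chain of vessels and nerve sheaths, read 15.26, 14.77, 14.91 and 15.13 on Ctrl 1 to 4 and 14.67, 15.40, 14.46 and 14.76 on Exp 1 to 4 and differed by -0.19 (SE 0.20, 95% confidence interval -0.66 to 0.27). For both Col1a2 and Col3a1 the highest arrays were Ctrl 1 and Exp 2 and the lowest was Exp 3, so the spread lay within the groups.

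Col2a1, the fibril chain of cartilage, read 9.39, 9.06, 8.90 and 9.37 on Ctrl 1 to 4 and 8.78, 9.16, 8.50 and 8.39 on Exp 1 to 4. Exp 2 fell within the Ctrl range, whereas Exp 1, Exp 3 and Exp 4 lay below it. The difference was -0.47 (SE 0.19, 95% confidence interval -0.90 to -0.05, limma unadjusted p = 0.0338, adjusted p = 0.999), and of 18 other settings 10 had an unadjusted p under 0.05. Col11a1, which joins Col2a1 in cartilage fibrils, differed by -0.42 (SE 0.22), and Col11a2 was under the filter. Of 8 cartilage markers, 2 passed the filter, Acan and Cnmd, and Sox9, Comp, Hapln1, Matn1, Matn3 and Snorc did not. The mean of those 2 was 0.06 in Ctrl and -0.06 in Exp, relative to all arrays, but they went opposite ways. Acan differed by 0.18 (SE 0.16) and Cnmd by -0.40 (SE 0.25). The summed signal of the 8 ran from 5437 to 6762 in Ctrl and from 4073 to 7319 in Exp. It was mostly Cnmd, which had a Ctrl mean of 12.06 beside 8.72 for Acan. The part of these markers in the difference of Col2a1 was not tested. Col5a1 and Col5a2, which limit fibril width, differed by 0.19 (SE 0.17) and 0.03 (SE 0.19), Col5a3 by 0.11 (SE 0.17), Col24a1 by 0.03 (SE 0.20) and Col27a1 by 0.17 (SE 0.10).

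Type VI collagen forms beaded filaments near basement membranes and in the endoneurium. Col6a1 read 12.85, 12.12, 12.46 and 12.33 on Ctrl 1 to 4 and 12.25, 12.63, 12.03 and 12.95 on Exp 1 to 4. Col6a2 read 14.44, 13.52, 13.84 and 13.88 on Ctrl 1 to 4 and 13.40, 14.24, 13.52 and 14.32 on Exp 1 to 4. In both chains Ctrl 1 and Exp 4 were the highest arrays, and Exp 1, Exp 3 and Ctrl 2 the lowest. The differences were 0.03 (SE 0.22, 95% confidence interval -0.48 to 0.54) for Col6a1 and -0.05 (SE 0.26, 95% confidence interval -0.65 to 0.55) for Col6a2, and Col6a3 differed by -0.09 (SE 0.14). Col7a1, the chain of the anchoring fibrils of skin, and Col26a1 are not type VI chains but were grouped with them as related collagens. Col7a1 had the smallest p of this mixed class and read 10.05, 10.16, 9.80 and 10.48 on Ctrl 1 to 4 and 10.58, 10.34, 10.65 and 10.22 on Exp 1 to 4. Exp 1 and Exp 3 were above every Ctrl array, Exp 2 and Exp 4 were not, and the difference was 0.33 (SE 0.16, 95% confidence interval -0.04 to 0.70, limma unadjusted p = 0.0768). Col26a1 differed by -0.17 (SE 0.13). Col6a4 and Col6a5 were under the filter.

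Col8a1, a short chain of the hexagonal nets under endothelium and cornea, was the one member with a higher signal in Exp and an unadjusted p under 0.05. It read 10.52, 10.07, 10.49 and 10.05 on Ctrl 1 to 4 and 10.10, 11.91, 11.36 and 10.96 on Exp 1 to 4. Exp 2, Exp 3 and Exp 4 lay above all Ctrl arrays and Exp 1 among them, so the spread was wider in Exp (SD 0.76) than in Ctrl (SD 0.26). The difference was 0.80 (SE 0.34, 95% confidence interval 0.03 to 1.57), 1.74-fold on the signal + 16 scale (limma, unadjusted p = 0.0442, adjusted p = 0.999). It was 0.52 without Exp 2 and 1.13 without Exp 1. Of 18 other settings 8 had an unadjusted limma p under 0.05, and the highest p was 0.112. Its other probe sets lay under the filter and differed by 0.69 (SE 0.39) and -0.18 (SE 0.51) in the fit without one. Epithelial markers had their highest means on the same pair of arrays, with 0.54 on Exp 2 and 0.53 on Exp 3 but -0.39 on Exp 4, and mural cell markers were highest on Exp 2, at 0.39. Skeletal muscle markers were also highest on that pair, with 0.68 on Exp 2 and 1.94 on Exp 3. Over the 11 muscle markers the summed signal ran from 6360 to 9977 in Ctrl and from 4175 to 63227 in Exp, with 10 past the filter and Tnnt3 not. Over the 9 epithelial markers the summed signal ran from 5843 to 7153 in Ctrl and from 4797 to 10512 in Exp, with 6 past the filter and Krt8, Krt14 and Krt15 not. Over the 7 mural markers it ran from 11535 to 15035 in Ctrl and from 12523 to 22877 in Exp, with 6 past the filter and Myh11 not. The highest of these sums, on Exp 3, was mostly Acta2, at 13.95 there and 10.79 to 12.10 on the other arrays. Rgs5, Pdgfrb and Cspg4 had their lowest values on Exp 3, at 11.07, 10.92 and 8.66. Of the 6 tested mural markers 2 were higher in Exp and 4 lower. Endothelial markers were at 0.07 on Exp 2, at -0.32 on Exp 3, their lowest array, and at 0.40 on Exp 4, their highest. Over the 9 endothelial markers the summed signal ran from 8963 to 13780 in Ctrl and from 7975 to 13793 in Exp. Of these markers 7 passed the filter, and Pecam1 and Tie1 did not. Among the 7, 2 were higher in Exp and 5 lower. Cdh5, the one whose groups did not overlap, was higher in Exp by 0.63 (SE 0.10, limma unadjusted p = 0.000198, adjusted p = 0.445). The part of any of these cells in the difference of Col8a1 was not tested. Col8a2, which forms the same nets, differed by 0.22 (SE 0.22), and Col10a1, of hypertrophic cartilage, was under the filter.

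Fibril-associated collagens had 5 of 9 genes higher and 4 lower. Col12a1, of dense connective tissue, read 11.38, 10.50, 10.48 and 10.67 on Ctrl 1 to 4 and 10.86, 11.51, 10.98 and 11.61 on Exp 1 to 4. Ctrl 1 lay within the Exp range and the other Ctrl arrays below it, with a difference of 0.48 (SE 0.25, 95% confidence interval -0.08 to 1.04, limma unadjusted p = 0.082). Col14a1 differed by 0.12 (SE 0.24), Col16a1 by 0.11 (SE 0.12), Col19a1 by 0.02 (SE 0.14) and Col22a1, of tissue junctions, by -0.21 (SE 0.19). A second Col22a1 probe set, with groups that overlapped, differed by -0.33 (SE 0.13, limma unadjusted p = 0.0343). The chains of type IX, which coats cartilage fibrils, differed by -0.22 (SE 0.27) for Col9a1, -0.39 (SE 0.30) for Col9a2 and 0.06 (SE 0.33) for Col9a3. Col20a1 had the widest spread of the class, from 7.64 on Exp 4 to 9.85 on Exp 1, and differed by -0.44 (SE 0.41).

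Of the transmembrane collagens, Col13a1, found at neuromuscular junctions, read 11.01, 10.15, 10.36 and 10.75 on Ctrl 1 to 4 and 9.91, 10.26, 10.30 and 10.41 on Exp 1 to 4. The arrays Ctrl 1 and Ctrl 4 were highest, and the groups overlapped, with a difference of -0.35 (SE 0.20, 95% confidence interval -0.80 to 0.10). Col25a1, made by neurons, differed by 0.28 (SE 0.17), but by -0.26 (SE 0.23) in its second tested probe set, and Col23a1 differed by -0.22 (SE 0.19). Col17a1, the transmembrane collagen of epithelial hemidesmosomes, lay under the filter and was not tested. It read 5.35, 6.14, 5.31 and 5.84 on Ctrl 1 to 4 and 7.36, 7.47, 7.65 and 6.29 on Exp 1 to 4, and all Exp values were above all Ctrl values, with and without quantile normalization. In the fit without a filter it differed by 1.54 (SE 0.33, 95% confidence interval 0.77 to 2.30, limma unadjusted p = 0.00177, adjusted p = 0.778), which was the smallest p of any member in that fit. Exp 4 was its lowest Exp array, as it was for the epithelial markers given above. On Exp 1, Exp 2 and Exp 3, where Col17a1 varied little, the mean of those markers was -0.04, 0.54 and 0.53, so Exp 1 was not alike. The part of these markers in the difference of Col17a1 was not tested. Multiplexins lie in basement membranes and release fragments that act on vessels. Col15a1 read 11.17, 11.14, 10.52 and 10.96 on Ctrl 1 to 4 and 11.04, 11.03, 11.56 and 11.16 on Exp 1 to 4, with Exp 3 highest and Ctrl 3 lowest, and differed by 0.25 (SE 0.18, 95% confidence interval -0.15 to 0.66), and Col18a1 by -0.06 (SE 0.11).

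**Figure D3:**
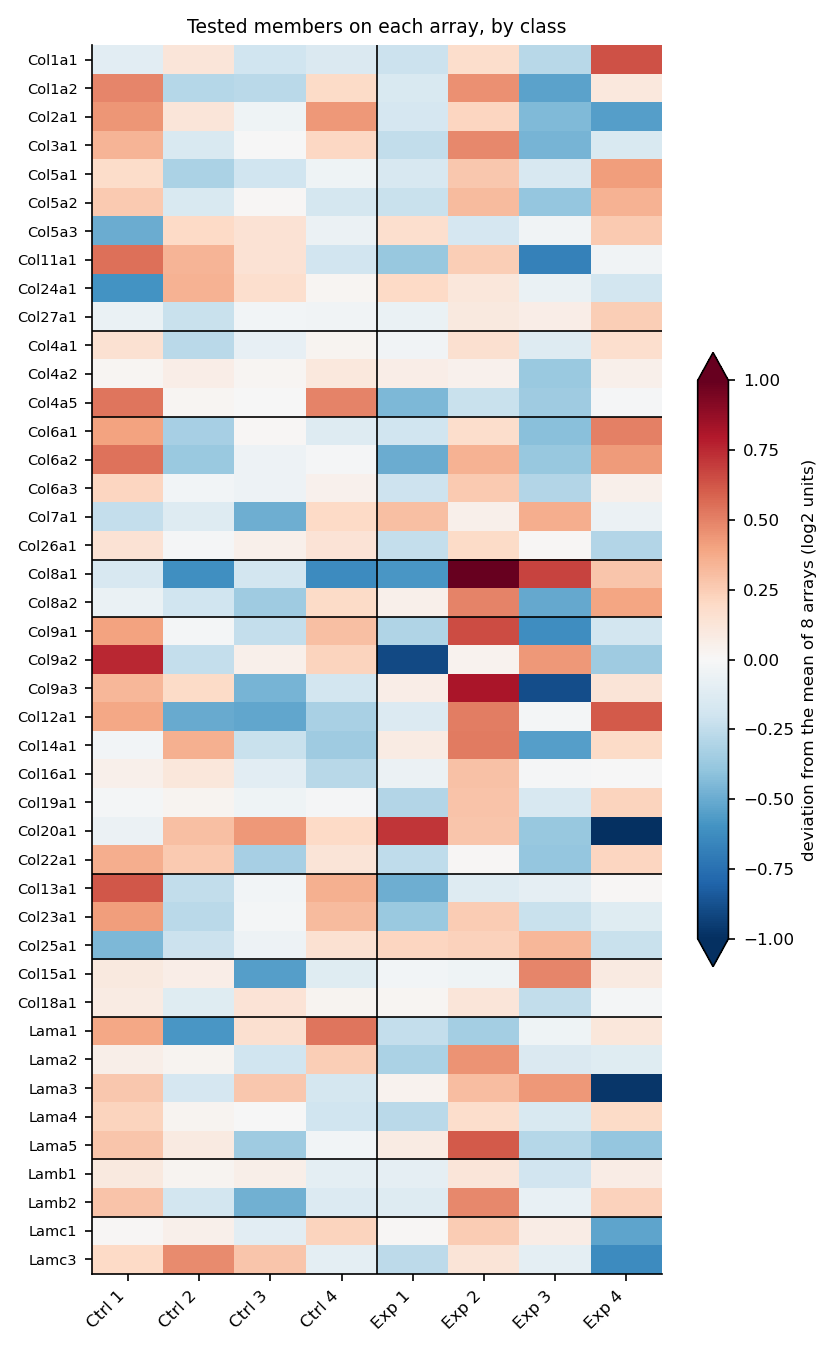
Deviation of each of the 43 tested genes on each array from that gene's mean over 8 arrays, in log2 units, with genes in rows by class and arrays in columns. Red is above and blue below the mean, and the colours run to 1 in both directions; Exp 2 is red and Exp 3 blue in many rows, whereas no block of columns separates Ctrl from Exp.

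For most members the spread among arrays of a group was larger than the difference between the groups. The median SD within a group was 0.25 in Ctrl and 0.30 in Exp over the 43 genes, beside 0.17 and 0.19 over all tested genes, and the difference exceeded the pooled SD in 10 genes, or 23.3%, beside 18.3% of all genes. Exp 2 had the highest level in 15 of the 43 genes and the lowest in 0, whereas Exp 3 had the lowest in 15. Ctrl 1 had the highest level in 10 genes. Mean deviations of the 34 collagens were 0.16, -0.06, -0.10 and 0.03 on Ctrl 1 to 4 and -0.14, 0.26, -0.20 and 0.05 on Exp 1 to 4. The 9 laminins had means of 0.20, -0.03, -0.04 and 0.03 on Ctrl 1 to 4 and -0.13, 0.24, -0.05 and -0.23 on Exp 1 to 4. Thus Ctrl 1 and Exp 2 were the high arrays for both families. Fibroblast markers were highest on Exp 2 (0.29), Exp 4 (0.28) and Ctrl 1 (0.24) and lowest on Ctrl 2 (-0.63). The Ctrl 2 value rested on Mfap4, a microfibril protein, at 6.58 there and 9.45 to 10.35 on the other 7 arrays. Without Mfap4, left out after its values were seen, Exp 2 (0.35), Exp 4 (0.24) and Ctrl 1 (0.23) were still the highest, and Ctrl 2 and Exp 1 were both at -0.29. Their summed signal over 9 genes ran from 17657 to 28360 in Ctrl and from 18302 to 35301 in Exp, 8 of 9 passed the filter with Pi16 the exception, and their part in the order of the arrays was not tested.

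**Figure D4:**
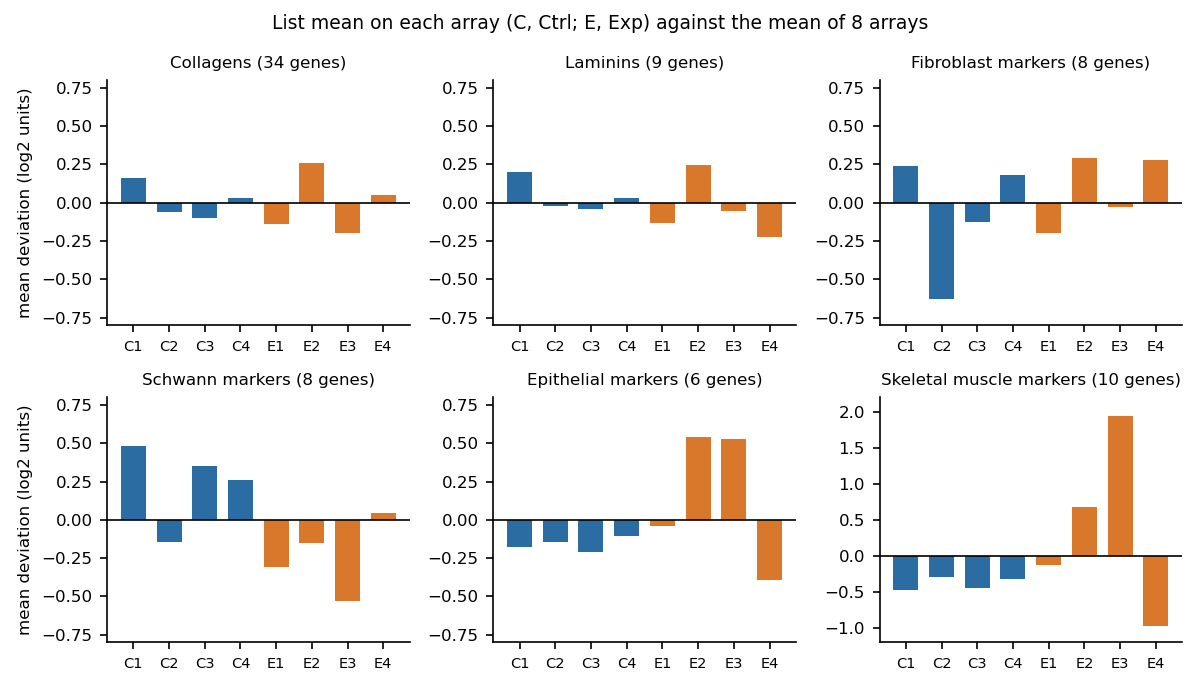
Mean deviation on each array, in log2 units, of the tested collagens, laminins and markers of fibroblasts, Schwann cells, epithelium and skeletal muscle, with Ctrl in blue and Exp in orange. Collagens and laminins are highest on Ctrl 1 and Exp 2; Schwann markers are higher on 3 of 4 Ctrl arrays than on any Exp array, a gap that is mostly Egr2, and the muscle panel, on a wider scale, peaks on Exp 3.

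Chains that assemble into 1 protein were compared across the 8 arrays in 9 pairs, with exact permutation tests over all pairings and Benjamini-Hochberg adjustment over the 9. Col6a1 and Col6a2 had a Pearson r of 0.93 (exact permutation p = 0.00181, adjusted p = 0.0163) and a Spearman rho of 0.88 (exact permutation p = 0.00724, adjusted p = 0.0652). Without the 2 arrays farthest from the Col6a1 median, Ctrl 1 and Exp 4, r was 0.87. Within groups it was 0.97 in Ctrl and 0.91 in Exp. Col6a1 and Col6a3 had an r of 0.73 (exact permutation p = 0.0384, adjusted p = 0.115) and a rho of 0.79 (exact permutation p = 0.0279, adjusted p = 0.126), and r was 0.81 without those arrays. Col5a1 and Col5a2 had an r of 0.85 (exact permutation p = 0.0120, adjusted p = 0.0538) and a rho of 0.64 (exact permutation p = 0.0962, adjusted p = 0.216), and r was 0.65 without Exp 2 and Exp 4. Only the first pair passed, and only by Pearson's r. Chains of different proteins were not correlated, so these r cannot show that chains of 1 protein are more alike than other chains. Col5a2 was highest on Exp 4 (14.53), Exp 2 (14.49) and Ctrl 1 (14.44) and lowest on Exp 3 (13.79). Col6a1 also had its highest and lowest levels on those arrays, at 12.95, 12.63, 12.85 and 12.03. All r and rho are from the brightest probe set of each chain. A second tested Col5a1 probe set was lowest on Exp 4 (11.35) and Ctrl 1 (11.39), where the brightest read 13.63 and 13.40. Likewise a second tested Col6a2 probe set read 11.11 on Ctrl 1 and 11.28 on Ctrl 3, where the brightest read 14.44 and 13.84. On Exp 2 and Exp 4 it was highest, at 11.46 and 11.39. The correlations of these second probe sets with Col5a2 and Col6a1 were not tested, and the r of a pair, also of the one that passed, may depend on the probe set.

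The type I chains were less alike, with an r of 0.35 for Col1a1 and Col1a2 (exact permutation p = 0.415, adjusted p = 0.587) and a rho of 0.50 (exact permutation p = 0.216, adjusted p = 0.389), and r was 0.18 without Exp 2 and Exp 4. Col4a1 and Col4a2 had an r of 0.28 (exact permutation p = 0.587, adjusted p = 0.587) and a rho of 0.14 (exact permutation p = 0.752, adjusted p = 0.793), and r was 0.56 without Ctrl 2 and Exp 4. Col9a1 and Col9a2 had an r of 0.30 (exact permutation p = 0.469, adjusted p = 0.587), a rho of 0.21 (exact permutation p = 0.619, adjusted p = 0.793) and an r of 0.84 without Exp 2 and Exp 3. For laminins, Lamc1 had an r of -0.25 with Lamb1 (exact permutation p = 0.579, adjusted p = 0.587) and a rho of -0.12 (exact permutation p = 0.793, adjusted p = 0.793), and r was 0.04 without Ctrl 4 and Exp 3. With Lama2 its r was 0.57 (exact permutation p = 0.143, adjusted p = 0.321), its rho 0.69 (exact permutation p = 0.0694, adjusted p = 0.208) and its r without Ctrl 4 and Exp 2 0.11. With Lama4 its r was -0.34 (exact permutation p = 0.449, adjusted p = 0.587), its rho -0.17 (exact permutation p = 0.703, adjusted p = 0.793) and its r without Ctrl 1 and Exp 1 -0.48.

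**Figure D5:**
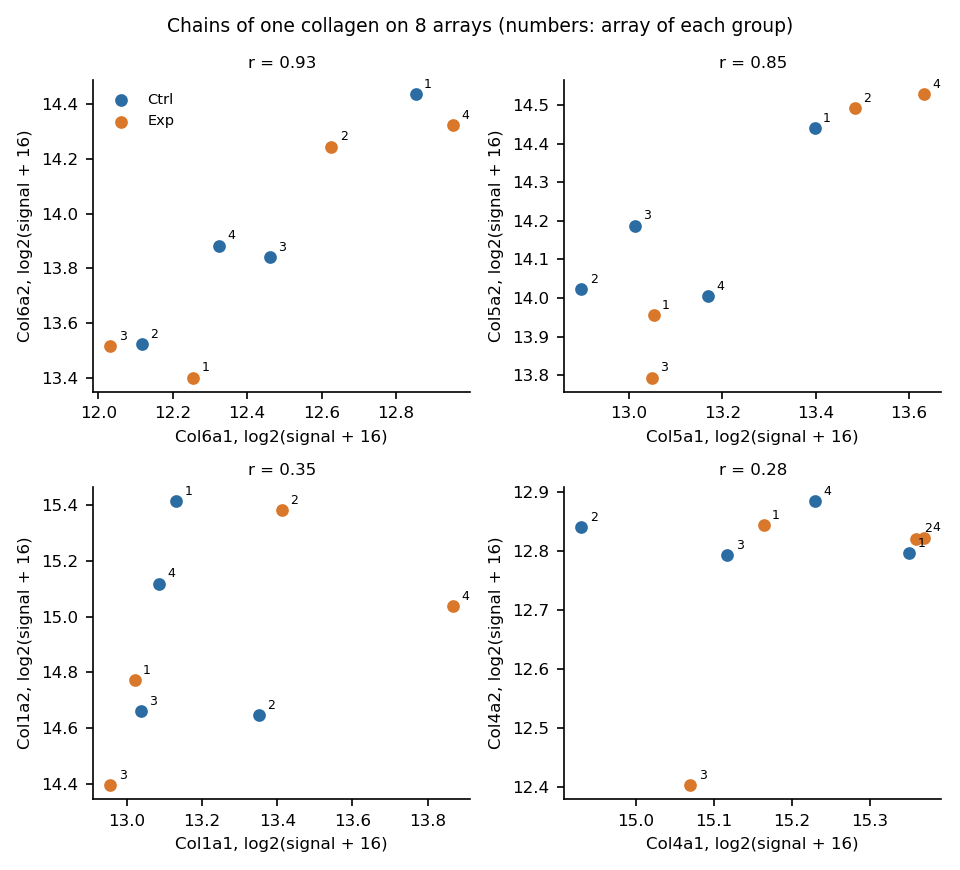
Level of a pair of chains on 8 arrays, in log2(signal + 16) on both axes, for types VI, V, I and IV, with Ctrl in blue, Exp in orange and array numbers beside the points. Each chain is given by its brightest probe set. The Col6a1 and Col6a2 points lie along a line with r = 0.93, the Col5a1 and Col5a2 points with 0.85, and the points of the other pairs scatter, with r = 0.35 and 0.28.

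Genes that modify, bind or cut these chains were examined in 5 lists. They held 77 genes, the array measured 71 and the filter left 59. Of the 59, 33 were higher in Exp, 26 lower and 0 called, with 5 at an unadjusted limma p under 0.05, all higher, a direction in which 1.47% of all tested genes had such a p. Groups did not overlap in 2 genes, both higher, where the background was 1.01%. The median difference was 0.02. In the list of chain modification and folding, 11 of 17 genes were higher and 3 had p under 0.05. Colgalt2, a galactosyltransferase of collagen hydroxylysine, read 9.29, 10.27, 9.62 and 8.67 on Ctrl 1 to 4 and 10.30, 10.49, 10.54 and 10.58 on Exp 1 to 4, with all Exp arrays above all Ctrl arrays, and differed by 1.02 (SE 0.29, 95% confidence interval 0.36 to 1.67, limma unadjusted p = 0.00678, adjusted p = 0.999). Plod2, the lysyl hydroxylase that sets the type of collagen cross-link, read 11.60, 11.29, 11.17 and 11.25 on Ctrl 1 to 4 and 12.61, 12.20, 11.37 and 12.70 on Exp 1 to 4. Exp 3 lay within the Ctrl range and the other Exp arrays above it, with a difference of 0.89 (SE 0.27, 95% confidence interval 0.27 to 1.52, limma unadjusted p = 0.00989, adjusted p = 0.999). P4ha1, a catalytic chain of prolyl hydroxylase, named after its value was seen, differed by 0.31 (SE 0.11, limma unadjusted p = 0.0233).

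In the other lists, procollagen processing and cross-linking had 5 of 7 genes higher, with Pcolce2, an enhancer of procollagen cleavage, at 13.43, 13.44, 13.39 and 13.32 on Ctrl 1 to 4 and 13.77, 13.68, 13.54 and 13.66 on Exp 1 to 4. All its Exp values lay above all Ctrl values, and it differed by 0.27 (SE 0.09, 95% confidence interval 0.06 to 0.48, limma unadjusted p = 0.0165, adjusted p = 0.999). Receptors had 6 of 11 higher, with Ddr2, a receptor kinase for fibrillar collagen, at 0.41 (SE 0.16, limma unadjusted p = 0.0311). Basement membrane and fibril partners had 6 of 13 higher, with the netrin Ntn4, which binds laminin, at -0.19 (SE 0.12). Proteases and inhibitors had 5 of 11 higher, with the membrane-bound collagenase Mmp14 at 0.29 (SE 0.17).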

How the data were processed

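Total RNA of 4 Ctrl and 4 Exp samples was measured on arrays, and groups and numbers came from the sample titles. The authors deposited linear signal intensity values, 1 per probe set and array; the sources used here do not say how they were computed. All 8 columns were mapped. After leaving out 64 control probe sets, log2(signal + 16) was quantile normalized (the medians differed by up to 0.203), and the 27022 probe sets at or above the 40th percentile of mean level were tested with limma 3.58.1 in R 4.3.3 (lmFit, eBayes, two-sided, Benjamini-Hochberg over all of them). A scaling of each array to a common level makes differences relative to the bulk of probe sets, and the pseudocount understates those of low signals. Names came from the platform annotation, updated by Entrez identifier through the RefSeq table of GRCm38.p6, and 34945 probe sets had 1 name. The brightest probe set, with the highest mean over all arrays, stood for a gene. The number of arrays limits the precision.

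The members and lists were chosen with earlier results of these data known. Levels on every array are given for members with an unadjusted p under 0.05, the smallest p of each class and 14 fixed genes. Genes whose probe sets differed by over 1 log2 unit are named with both, and each partner list gives its smallest p and any p under 0.01. Col6a6, Col21a1 and Col28a1 were not analysed here. The labels do not say that the same array numbers pair the groups, and the main fit did not pair them. Deviations of same-numbered arrays correlated between -0.12 and 0.05, which cannot show whether the arrays were paired. The steps were tested on simulated data. Alternatives were a pseudocount of 1 or 64, the filter dropped or raised to the 60th percentile, normalization dropped or replaced by median centring, the replicate block, limma's trend and robust options, array weights, averaging all probe sets of a gene, leaving out each array and, added after the data were seen, the Xist signal as a covariate and marker means without 1 gene. Figures were drawn with matplotlib 3.10.9.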

Additional observations from a re-analysis of the deposited data

Results flagged for a closer look

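In groups of 4 arrays, 68 sets of values of the named members and of class means were examined for an array far from the others, and 1 was found, where chance gives about 3.4. Col4a2, a chain of the common type IV collagen, was 12.40 on Exp 3, while the other Exp arrays lay between 12.82 and 12.84, a gap of 0.947 of the group's range.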

How the results depend on the processing

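The count of member probe sets past the 5% false discovery rate was 0 under every alternative run. By limma at an unadjusted p under 0.05 there were 6 such member probe sets. The count of member genes at that p was 4, and it was 2 with a filter at the 60th percentile, which leaves fewer members tested, 2 with trend and robust options, and between 2 (without Ctrl 1 or Ctrl 3) and 6 (without Exp 2) when 1 array was left out. The replicate block gave 3 genes, all among the 4. It is given only here, since the labels do not say that the numbers pair arrays, and no array pair correlated best with its own number. Col4a5 alone of the 4 kept an unadjusted p under 0.05 in all its alternatives. The collagen median ran from -0.09 (without Exp 2) to 0.09 (without Exp 3), and the laminin median from -0.19 (without Exp 2) to -0.02, all within the spread between arrays.

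Of the values of single genes and pairs under the alternatives, 29 changed sign, all uncalled, and 405 kept sign and side of the threshold, and 1, the pair Col6a1 and Col6a2 by Spearman's rho, lost its call. The cause was not tested. With Xist as a covariate Col6a1 was -0.0071 and Lama2 0.012. Col1a2 was 0.053 with array weights, and Col6a1 was -0.036 with centring on medians. Averaged over all its probe sets, Col4a1 was -0.0095, Col6a2 0.023 and Lamb1 0.10. The same averaging, which takes in a dim probe set, gave -0.87 for Lamc1 against -0.09 by its brightest (limma, unadjusted p = 0.0291), and 3 genes under 0.05, Col2a1, Col4a5 and Lamc1. The r of Lamb1 and Lamc1 was 0.036 without the 2 arrays farthest from the median. Leaving out 1 array gave ranges of -0.022 to 0.28 for Col1a1, -0.22 to 0.10 for Col1a2, -0.15 to 0.0014 for Col4a2, -0.13 to 0.17 for Col6a1, -0.20 to 0.12 for Col6a2, -0.23 to 0.0297 for Lama2, -0.097 to 0.0596 for Lama4, -0.19 to 0.14 for Lama5, -0.093 to 0.012 for Lamb1 and -0.19 to 0.069 for Lamc1. The 4 arrays per group and the lack of a background level limit what low signals such as Col4a6 and Col17a1 can show.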

Other observations

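Several members are next to each other on a chromosome in the RefSeq table, and 7 such neighbouring pairs were listed. In 4 of them both genes were tested, with differences (Exp minus Ctrl, log2) of -0.22 for Col9a1 and 0.02 for Col19a1, -0.19 for Col3a1 and 0.03 for Col5a2, -0.05 for Col6a2 and 0.03 for Col6a1, and 0.08 for Col4a1 and -0.11 for Col4a2. None of these 8 genes had an unadjusted limma p under 0.05. The signs of the pairs Col6a2 with Col6a1 and Col4a1 with Col4a2 were not stable under other settings, as given above. In the pair Col4a6 and Col4a5 the differences were -1.40 and -0.52, with Col4a6 under the filter and not tested.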
